A study of Mus musculus with 4 samples.

Results

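The genes described are the core circadian clock genes *Clock*, *Arntl* (also named *Bmal1*), *Per1*, *Per2*, *Per3*, *Cry1*, *Cry2*, *Nr1d1*, *Nr1d2* and *Dbp*, chosen by name, which are 10 of 20832 genes with a named probe on the arrays. Each has 1 probe whose accession matched its RefSeq symbol, except *Dbp* with 2 probes, so that 11 probes were read. The samples were Met-low and Met-high cells of B16-F10, a mouse melanoma line, separated by flow sorting for the amount of the receptor Met on the cell surface and grown for 3 days in medium with 10% serum, with 2 arrays for each population. No drug or transgene is named for either population, both came from the same line, and the sort did not use any clock gene. RNA was taken once after culture, and the hour of collection and any resetting of the clock by a medium change are not given in the sources used here, so that a level and a phase of the clock cannot be told apart.

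The circadian clock is a feedback loop of transcription. CLOCK and BMAL1, the protein of *Arntl*, bind as a pair to E-box sequences and activate the *Per* and *Cry* genes, whose proteins return to the nucleus and repress that pair. In a second loop the REV-ERB receptors, made from *Nr1d1* and *Nr1d2*, repress *Arntl* through ROR elements, and DBP, itself under E-box control, drives outputs through D-boxes. Single cells in culture are known to carry such clocks.

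The background-corrected Cy3 intensity of each spot, called the signal here, was expressed as log2 of its ratio to the array's 75th percentile, which is called the log2 signal. A log2 ratio is the mean log2 signal in Met-high minus that in Met-low cells, so that negative values are lower in Met-high cells. The 75th percentile of the signal lay between 858 and 1331 over the arrays, 50.01% to 53.63% of spots were well above background, and 0 were saturated. All 7 melanocyte lineage markers examined (*Mitf*, *Sox10*, *Pmel*, *Mlana*, *Tyr*, *Tyrp1* and *Dct*) were well above background on the 4 arrays. Their summed signal was 1385 to 1691 times the array's 75th percentile in Met-low and 1493 to 1698 times in Met-high cells. Of 7 markers of leukocytes, endothelium, fibroblasts and keratinocytes, 0 were well above background on all arrays and 4 (*Ptprc*, *Cdh5*, *Dcn* and *Lum*) on none, and their summed signal was at most 0.197 times that percentile in Met-low and 0.206 times in Met-high cells. The log2 signal of *Met* itself was -0.26 and -0.89 in Met-low and 1.03 and -0.43 in Met-high cells, so that Met-high replicate 2 lay between the Met-low arrays. Without that array the log2 ratio was -0.62 for *Cry2*, -0.27 for *Clock*, -0.45 for *Nr1d1* and -0.48 for *Dbp*. In these genes both Met-low values exceeded both Met-high values, so that leaving out 1 array could not turn the sign. For the other tested clock genes the ratio without that array was -0.26 (*Arntl*), -0.01 (*Per1*), -0.01 (*Nr1d2*) and 0.60 (*Cry1*). The 4 arrays shared 1 slide, with each population at its own pair of positions, and effects of place and of population cannot be separated.

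The sequence before the start site is shown for 4 of the genes, since the activator pair acts through E-boxes and DBP through D-boxes. *Per1* and *Cry1* were the clock genes with an E-box there, *Per3* the one with D-boxes, and *Cry2* is the paralog of *Cry1*. The sequences are from RefSeq for the mouse assembly GRCm38.p6, 250 bases before the start, printed 5′ to 3′ on the strand of the gene. Capitals mark the motifs searched on both strands, which were the E-box CACGTG, the D-boxes TTATGTAA and TTACGTAA, the ROR half-site AGGTCA and the cyclic AMP response element TGACGTCA. The first window of *Per1* is chr11:69098699-69098948 (+), that of *Cry1* chr10:85185055-85185304 (-), that of *Cry2* chr2:92434070-92434319 (-) and that of *Per3* chr4:151044666-151044915 (-).
Per1: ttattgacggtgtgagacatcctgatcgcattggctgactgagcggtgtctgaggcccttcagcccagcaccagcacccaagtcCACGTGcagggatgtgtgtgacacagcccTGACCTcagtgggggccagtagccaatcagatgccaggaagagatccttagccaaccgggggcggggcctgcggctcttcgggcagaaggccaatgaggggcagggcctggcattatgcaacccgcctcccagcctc
Cry1: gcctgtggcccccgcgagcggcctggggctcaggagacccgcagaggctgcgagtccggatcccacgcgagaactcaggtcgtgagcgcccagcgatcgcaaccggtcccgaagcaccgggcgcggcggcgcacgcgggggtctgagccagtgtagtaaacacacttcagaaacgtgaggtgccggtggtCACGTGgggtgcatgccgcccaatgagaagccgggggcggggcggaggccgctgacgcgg
Cry2: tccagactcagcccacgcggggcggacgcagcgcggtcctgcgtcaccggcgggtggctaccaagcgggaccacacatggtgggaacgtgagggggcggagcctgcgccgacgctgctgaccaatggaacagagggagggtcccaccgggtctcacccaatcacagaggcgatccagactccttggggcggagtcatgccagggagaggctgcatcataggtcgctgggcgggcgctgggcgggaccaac
Per3: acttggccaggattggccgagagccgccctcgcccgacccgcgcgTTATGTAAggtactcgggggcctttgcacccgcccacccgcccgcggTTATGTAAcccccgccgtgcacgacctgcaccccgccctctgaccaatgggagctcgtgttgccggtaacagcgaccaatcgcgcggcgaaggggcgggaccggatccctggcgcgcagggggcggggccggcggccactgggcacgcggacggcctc

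In *Per1* the E-box began 166 bases and the ROR half-site, on the other strand, 137 bases before the start, and in *Cry1* the E-box began 60 bases before it. In *Per3* the D-boxes began 205 and 158 bases before the start. There were 13 windows for 9 of the genes, *Per2* not being among them. The E-box was found in 2 of the 13 windows, the D-box in 1, the ROR half-site in 3 (*Clock*, *Per1* and *Nr1d2*) and the cyclic AMP element in 0. Of the 3 windows of *Clock* and the 2 of *Per1*, 1 each held a match. Of 32851 windows of the same length, 6.02% held the E-box, 0.931% a D-box, 14.02% the ROR half-site and 1.55% the cyclic AMP element. A match is a description of letters and not of a bound site.

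No clock gene passed the adjusted threshold between Met-low and Met-high cells, and the shares past each threshold lay near those of all genes. Of the 10 genes, 8 passed the filter for signal above background and 7 were well above background on all 4 arrays. *Per2* and *Per3* lay below that level on each array and were not tested. In limma with Benjamini-Hochberg adjustment over 11958 genes, 0 of the 8 tested reached an adjusted p under 0.05, while 5.77% of all genes did (3.82% lower and 1.95% higher in Met-high cells). As the RNA came from whole populations, fewer cells expressing a gene and less of its RNA per cell cannot be told apart. At an unadjusted p under 0.05 there were 2, *Cry2* and *Nr1d1*, against 26.2% of all genes. None of the 8 differed by more than 2-fold, as 7.73% of all genes did. The 95% interval of the ratio from limma, taken for each gene by itself, stayed within 2-fold for 6 of the 8, against 68.6% of all genes. The exceptions were *Cry1* and *Cry2*.

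**Figure D1:**
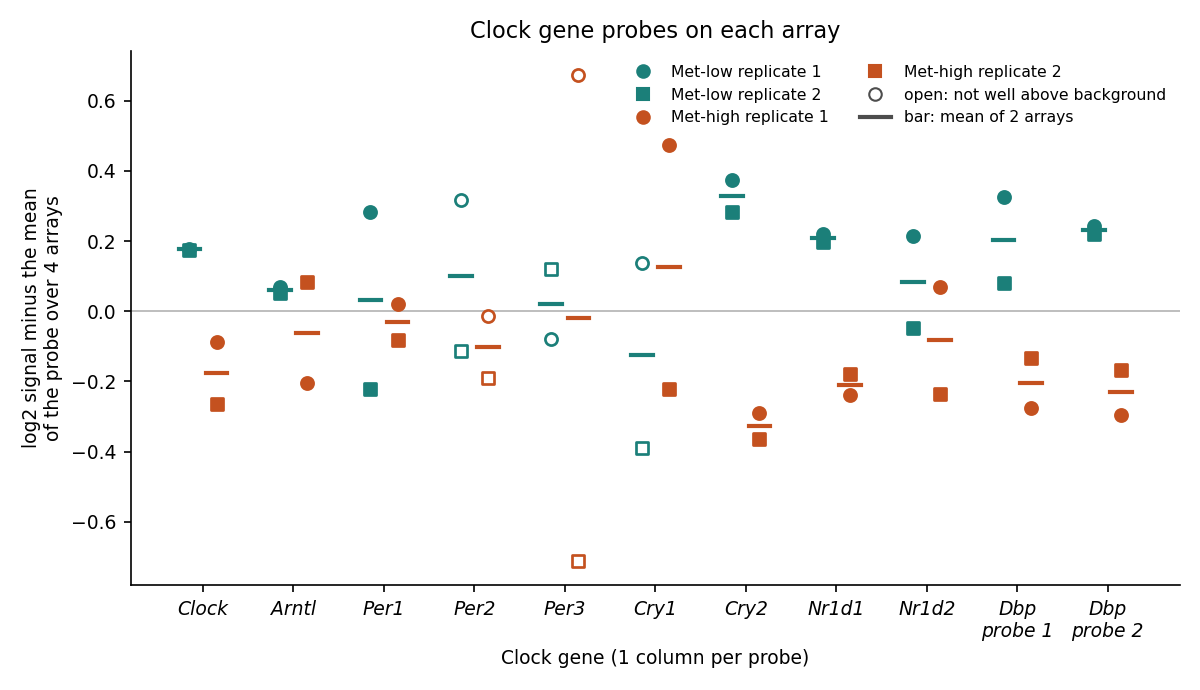
Log2 signal of each clock gene probe on the 4 arrays (points), relative to the mean of that probe over the arrays, with bars at the mean of each population. *Clock*, *Cry2*, *Nr1d1* and both probes of *Dbp* show Met-low arrays above Met-high arrays without overlap, and open points mark *Per2*, *Per3* and *Cry1* where the probe was not well above background.

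The activators came first in the loop. *Clock* (NM_007715), a bHLH-PAS factor and one partner of the pair, had signals of 588 and 829 in Met-low and 445 and 510 in Met-high cells. On the log2 scale these were -0.68 and -0.68 against -0.95 and -1.12, so that the populations did not overlap. Its log2 ratio was -0.35 (standard error, SE, 0.16, limma adjusted p = 0.24), with an interval of -0.76 to 0.05. *Arntl* (NM_007489), the other partner, had signals of 392 and 548 in Met-low and 296 and 467 in Met-high cells. Its log2 signals of -1.27 and -1.28 in Met-low cells lay between those of -1.54 and -1.25 in Met-high cells. The log2 ratio of *Arntl* was -0.12 (SE 0.17, limma adjusted p = 0.69), with an interval of -0.56 to 0.32, and it was 0.02 without Met-high replicate 1.

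Of the *Per* genes, whose products form the repressive complex with the cryptochromes, one was measurable. *Per1* (NM_011065), also an early response gene of serum and cyclic AMP, had signals of 2619 and 2608 in Met-low and 1989 and 2395 in Met-high cells. The log2 signals were 1.47 and 0.97 in Met-low and 1.21 and 1.11 in Met-high cells, so that both Met-high arrays lay between the Met-low arrays. The log2 ratio was -0.06 (SE 0.22, limma adjusted p = 0.88), with an interval of -0.62 to 0.49, and it was 0.19 without Met-low replicate 1. The difference of 0.50 between the Met-low arrays was larger than that between the populations. *Per2* (NM_011066) had signals between 6.91 and 10.0, and *Per3* (NM_011067) between 8.55 and 18.2, and no ratio is given for either, since neither was well above background on any array.

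Of the cryptochromes, one was measured well on all arrays. *Cry2* (NM_009963), a repressor of the activator pair, had the largest difference among the 8 genes. Its signals were 953 and 1264 in Met-low and 548 and 674 in Met-high cells. The log2 signals were 0.02 and -0.08 in Met-low and -0.65 and -0.72 in Met-high cells. Both Met-low arrays thus lay above both Met-high arrays, with a spread of 0.09 and 0.07 within the populations. The log2 ratio was -0.65 (SE 0.16, unadjusted p = 0.0074, limma adjusted p = 0.077), a level 36.5% lower in Met-high cells, and did not pass the threshold. Its interval of -1.05 to -0.26 included a 2-fold decrease. *Cry1* (NM_007771), the paralog, had signals of 39.3 and 38.5 in Met-low and 45.3 and 36.1 in Met-high cells. It was well above background on the Met-high arrays and on neither Met-low array, and it was tested through the former alone. The log2 signals of -4.58 and -5.11 in Met-low and -4.25 and -4.94 in Met-high cells overlapped. Its measured log2 ratio was 0.25 (SE 0.31, limma adjusted p = 0.64), with an interval of -0.53 to 1.03. The ratio of *Cry1* was -0.01 without Met-low replicate 2 and -0.10 without Met-high replicate 1, so that no direction is given for it.

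The REV-ERB receptors, repressors of *Arntl*, had negative ratios that did not pass the threshold. *Nr1d1* (NM_145434) had signals of 91.9 and 128 in Met-low and 60.8 and 82.1 in Met-high cells. Its log2 signals were -3.36 and -3.38 in Met-low and -3.82 and -3.76 in Met-high cells, without overlap. The log2 ratio was -0.42 (SE 0.15, unadjusted p = 0.038, limma adjusted p = 0.17), with an interval of -0.80 to -0.03. It was -0.20 with a normexp background correction and -0.25 with quantile normalization, each more than 1.5 times smaller. The unadjusted p from limma was then 0.25 and 0.17, and it was 0.15 with a variance trend. *Nr1d2* (NM_011584) had signals of 371 and 437 in Met-low and 306 and 321 in Met-high cells. Its log2 signals of -1.34 and -1.61 in Met-low overlapped those of -1.49 and -1.79 in Met-high cells. The log2 ratio was -0.17 (SE 0.20, limma adjusted p = 0.62), with an interval of -0.66 to 0.33. It was nearer 0 without Met-high replicate 2 (-0.01) and without Met-low replicate 1 (-0.03), and with normexp (-0.08) or quantile normalization (-0.06).

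*Dbp* (NM_016974), a PAR bZIP factor and one of the most strongly rhythmic outputs of the clock, was read by a pair of probes. The brighter had signals of 899 and 1072 in Met-low and 540 and 772 in Met-high cells. The second had signals of 819 and 1137 in Met-low and 513 and 726 in Met-high cells. Neither probe showed overlap between the populations, with log2 signals of -0.07 and -0.31 against -0.67 and -0.53 for the brighter and -0.20 and -0.23 against -0.74 and -0.61 for the second. The log2 ratio of the brighter probe was -0.41 (SE 0.17, limma adjusted p = 0.22), with an interval of -0.85 to 0.03. In a fit of limma over all 19796 probes past the filter, of which 2.63% were called, the second probe had a log2 ratio of -0.46 (unadjusted p = 0.033, adjusted p = 0.19).

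**Figure D2:**
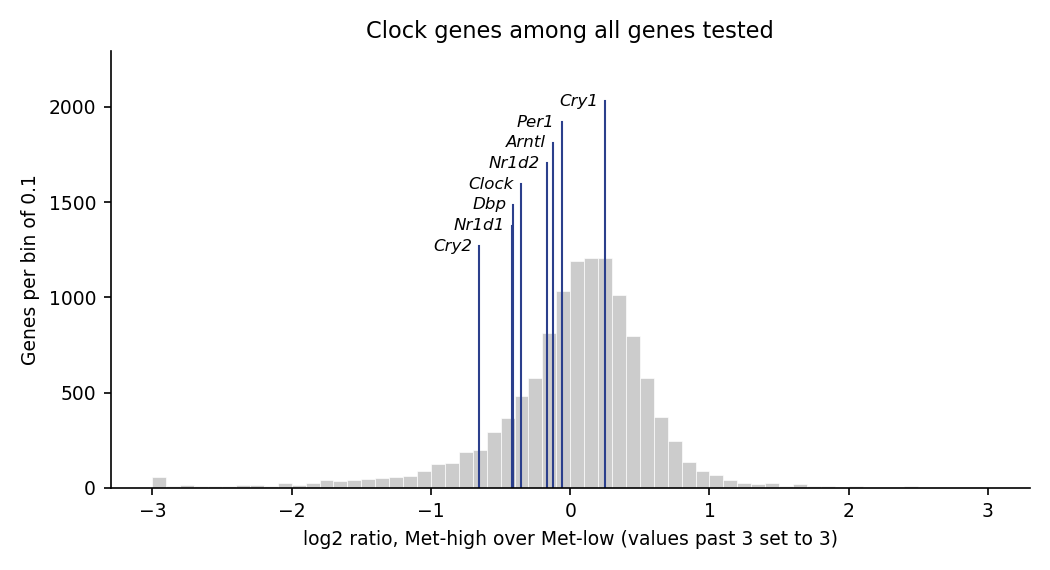
Number of genes in each bin of 0.1 of the log2 ratio over the 11958 genes tested (grey), with blue lines at the 8 tested clock genes, whose heights only separate the labels. *Cry2* at -0.65 lies farthest from the median of all genes, 0.10, and *Cry1* at 0.25 is the one clock gene above it.

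The mean was lower in Met-high cells for 7 of the 8 genes tested, against 40.5% of all genes. The exception was *Cry1*, which was tested through the Met-high arrays alone and for which no direction is given. For the 7 that were well above background on the 4 arrays the median of the log2 ratios was -0.35. Of the 11223 genes measured to the same degree, 40.1% had a lower mean in Met-high cells, and the median over all genes tested was 0.10. Without Met-low replicate 1 *Per1*, and without Met-high replicate 1 *Arntl*, was no longer lower. With each array scaled to the 75th percentile of its detected probes, the median of all genes moved by -0.14. The share with a lower mean among the 11223 genes was then 54.96%. All 7 clock genes were lower in that setting, at a median of -0.50. In 4 of the 8 genes tested (*Clock*, *Cry2*, *Nr1d1* and *Dbp*) the lower of the Met-low values exceeded the higher of the Met-high values, a pattern that 22.6% of all genes showed, and 21.9% of those well above background on the 4 arrays. The reverse pattern was found in 0 of the 8 and in 35.8% of all genes. Relative to the median of all genes, the log2 ratio was -0.75 for *Cry2*, -0.51 for *Nr1d1*, -0.50 for *Dbp* and -0.45 for *Clock*. These counts describe 10 genes chosen by name and are not a test of them as a group.

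Differences between clock genes within an array do not change when an array is scaled by a single factor, although they do with the background correction or quantile normalization. *Arntl* served as the reference, since its mRNA is known to peak opposite to that of *Dbp* and *Nr1d1* in many tissues. The log2 signal of *Dbp* minus that of *Arntl*, centred on its mean over the arrays, was 0.26 and 0.03 in Met-low and -0.07 and -0.21 in Met-high cells, without overlap. The difference between the populations was -0.29, and it was -0.17 without Met-low replicate 1. For *Nr1d1* minus *Arntl* the centred values were 0.15 and 0.14 in Met-low and -0.04 and -0.26 in Met-high cells, a difference of -0.30, without overlap. It was -0.08 with normexp and -0.19 without Met-high replicate 2. The populations overlapped for *Per1* minus *Arntl* (0.06), *Clock* minus *Arntl* (-0.23) and *Nr1d1* minus *Nr1d2* (-0.25). They did not overlap for *Cry2* minus *Arntl* (-0.53, and -0.35 without Met-high replicate 2) and *Cry2* minus *Per1* (-0.59, and -0.39 without Met-low replicate 2). These values share genes, were chosen after the levels were known and were not tested. No share without overlap is given for pairs of other genes. Of all genes taken singly, 22.6% were lower and 35.8% higher in Met-high cells without overlap.

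A wider list of 23 genes that act on or under the clock was examined by role, and 18 of them were tested. In limma 1 of the 18, *Wee1*, passed an adjusted p under 0.05, as 5.77% of all genes did. At an unadjusted p under 0.05 there were 3, against 26.2% of all genes. The mean was lower in Met-high cells for 10, against 40.5% of all genes, and higher for 8. The log2 ratios had a median of -0.18, and 0 differed by more than 2-fold, as 7.73% of all genes did. The log2 ratios ran from -0.74 to 0.89, and the interval stayed within 2-fold for 12 of the 18, against 68.6% of all genes. The populations did not overlap for 8 genes lower and 2 genes higher in Met-high cells, against 22.6% and 35.8% of all genes.

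**Figure D3:**
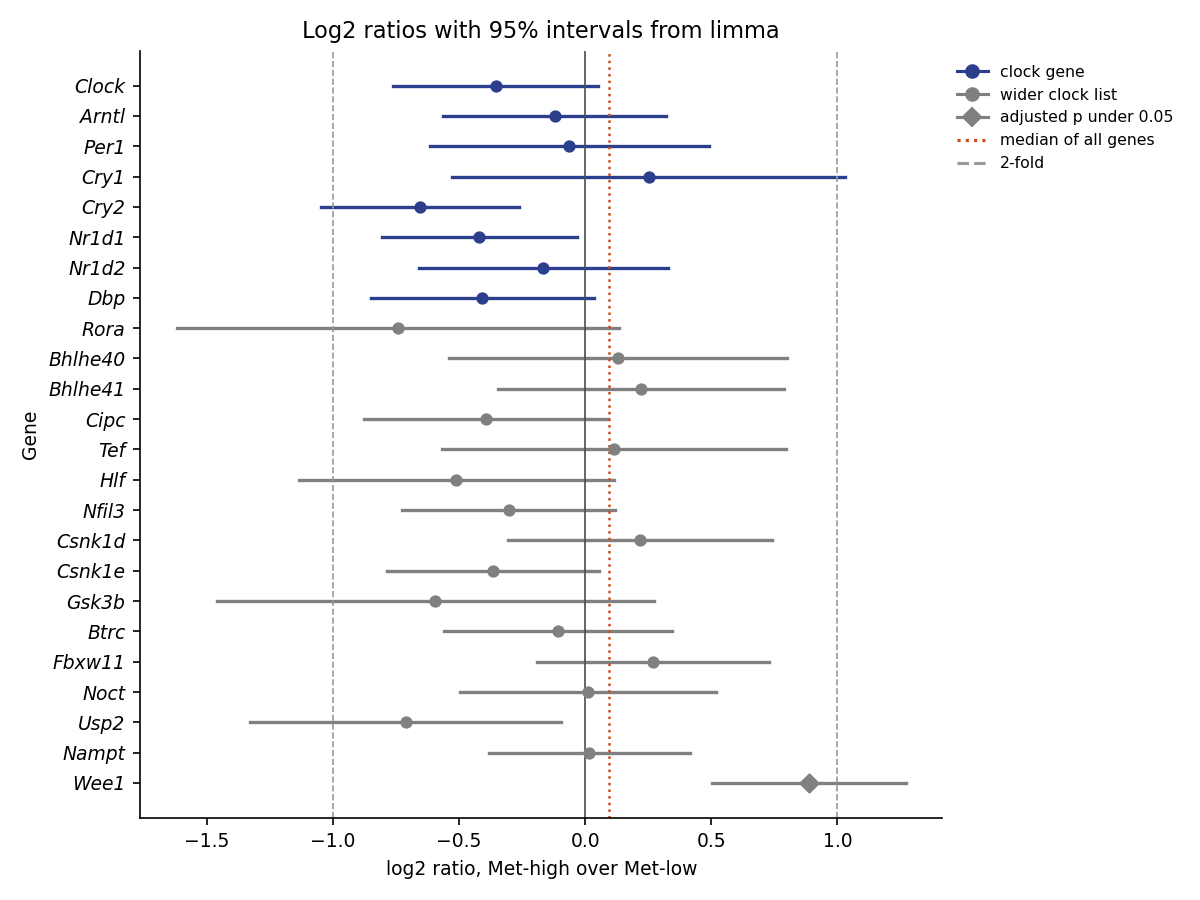
Log2 ratio of Met-high over Met-low cells (points) with the 95% interval from limma (lines) for the 8 clock genes tested (blue) and 16 genes of the wider list (grey). Of the 24 genes drawn, *Wee1* at 0.89 is the one past the adjusted threshold (diamond), and the intervals of 17 lie between the dashed lines at 2-fold.

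*Wee1* (NM_009516), an output of the clock whose kinase restrains entry into mitosis, was higher in Met-high cells. Its signals were 948 and 1382 in Met-low and 1628 and 2095 in Met-high cells. The log2 signals were 0.01 and 0.05 in Met-low and 0.92 and 0.91 in Met-high cells, without overlap. The log2 ratio was 0.89 (SE 0.15, limma adjusted p = 0.038), a 1.85-fold difference. The call was lost when any array was left out, at an adjusted p of 0.13 and 0.097 with Met-low replicate 1 or 2 left out and of 0.078 and 0.093 with Met-high replicate 1 or 2 left out. It was also lost at 0.054 with the percentile of detected probes, 0.18 without a filter on dim probes and 0.064 in the fit over all probes, in a range from 0.023 over the alternatives without pairing. Among the other 3 outputs (*Noct*, *Usp2* and *Nampt*) none passed the adjusted threshold in limma and *Usp2* had an unadjusted p under 0.05.

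The paralogs of the activators, *Arntl2* and *Npas2*, had no array well above background. Of the ROR receptors, which activate *Arntl* through the elements that the REV-ERB receptors share, *Rora* was tested and *Rorb* was not well above background. *Rora* (NM_013646) had log2 signals of -2.14 and -2.58 in Met-low and -2.65 and -3.56 in Met-high cells. Its log2 ratio of -0.74 (SE 0.35, limma adjusted p = 0.25) had an interval of -1.62 to 0.13. Met-high replicate 2 decided its size, since the log2 ratio was -0.28 (adjusted p = 0.66) without that array and -1.20 (adjusted p = 0.041) without Met-high replicate 1, and leaving out Met-low replicate 1 gave -0.52.

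Of the other repressors, *Ciart* was not well above background and 3 were tested. *Cipc* (NM_173735), which binds CLOCK, had the largest of their ratios at -0.39 (SE 0.19, limma adjusted p = 0.26), while the other probe gave -0.37, with overlap. Without Met-high replicate 2 the ratio of *Cipc* was -0.23. All 3 members of the group of PAR bZIP factors and their antagonist (*Tef*, *Hlf* and *Nfil3*) were tested. *Hlf* (NM_172563) had the largest ratio among them at -0.51 (SE 0.25, limma adjusted p = 0.26), without overlap, with log2 signals of -1.65 and -1.94 in Met-low and -2.02 and -2.59 in Met-high cells. It was -0.23 without Met-high replicate 2 and -0.79 without Met-high replicate 1. *Fbxl21* was not well above background, while 6 other kinases and ubiquitin ligase parts that act on PER and CRY proteins were tested.

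The genes were also split by the arm of the loop that drives them. For comparison, 40.5% of all genes tested had a lower mean in Met-high cells, and the median log2 ratio of all genes tested was 0.10. Of 13 genes of the E-box arm, 10 were tested, of which 6 had lower and 4 higher means in Met-high cells, at a median of -0.11 on the log2 scale. That median was 0.08 and -0.31 with Met-low replicate 1 or 2 left out, and -0.24 and -0.01 with Met-high replicate 1 or 2 left out, so that it has no settled sign. Scaling to detected probes gave -0.26. Of 5 genes of the ROR-element arm, 4 were tested, with 3 lower and 1 higher and a median of -0.21, which ran from -0.36 to -0.15 over the alternatives. *Cry1* stands in both arms and is counted as higher in each, although it was tested through the Met-high arrays alone and no direction is given for it. Over the genes well above background on all 4 arrays, the median was -0.17 for the E-box arm and -0.30 for the ROR-element arm. In neither arm did a gene pass an adjusted p under 0.05 in limma, as 5.77% of all genes did. At an unadjusted p under 0.05 there were 2 of 10 in the E-box arm and 0 of 4 in the ROR-element arm, against 26.2% of all genes.

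**Figure D4:**
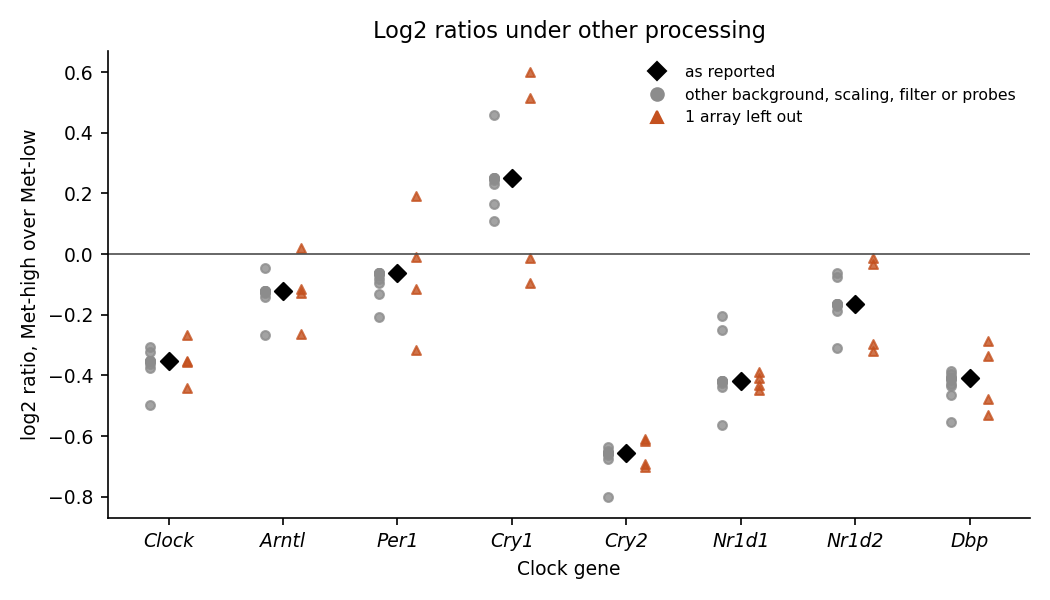
Log2 ratio of the 8 tested clock genes as reported (diamonds), under other choices of background, scaling, filter or probes (grey points) and with 1 array left out (triangles). The ratio of *Cry2* stayed between -0.80 and -0.61, while the triangles of *Arntl*, *Per1* and *Cry1* fall on both sides of 0.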

How the data were processed

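Cy3-labelled cRNA from 200 ng of RNA of 2 Met-low and 2 Met-high samples was hybridised to 1-colour Agilent arrays. For each array the authors deposited a linear Cy3 intensity per spot after background subtraction, with their own table of log2 values, scaled to the 75th percentile of each array and centred on the median of each probe. Feature Extraction was version 11.0.1.1 per the file headers and 10.7.3.1 per the labels. Spots flagged as outliers were dropped, spots of a probe averaged and probes named by accession through RefSeq (GRCm38.p6), 27427 of 39429 in all. The probe with the highest mean stood for a gene, which was kept if 1 population had both arrays well above background (11958 genes). The comparison used limma 3.58.1 (lmFit, then eBayes) under R 4.3.3, two-sided, and adjusted p-values are Benjamini-Hochberg over these genes. The 2 arrays of a population limit the precision. The sources describe the cells as independently prepared without saying at which step, so p-values measure the spread between these samples alone. The test was checked on simulated data with independent noise on each array. Replicates numbered alike deviated together in the real data, and that check does not cover this.

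The clock genes and lists were chosen with earlier results of these data known. The text names the 10 clock genes and, of the wider list, the genes called or past 2-fold and otherwise the largest ratio of each role, and 2 genes of that list, which its counts include, are not reported here. Alternatives were normexp (offset 50), other scalings, filters and probe choices, the authors' table, each array left out, a replicate block, a variance trend and a 2-fold threshold. Tables and figures were made with Python 3.11.15. Probe sequences were not used here.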

Additional observations from a re-analysis of the deposited data

How the results depend on the processing

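Over the alternatives that kept all 4 arrays and used no pairing, 0 clock genes were called in limma at an adjusted p under 0.05. *Cry2* came nearest at an adjusted p of 0.052 with the percentile of detected probes. At an unadjusted p under 0.05 there were 1 to 4 clock genes. The 4 were found with the percentile of detected probes, against 1965 lower and 939 higher in Met-high cells of all 11958 genes. With quantile normalization there was 1, against 1434 lower and 1574 higher of all genes. With 1 array left out, the log2 ratio ran from -0.26 to 0.02 for *Arntl* (0.0214 without Met-high replicate 1), from -0.31 to 0.19 for *Per1*, from -0.10 to 0.60 for *Cry1* and from -0.70 to -0.61 for *Cry2*, and no other alternative turned a clock gene's direction. The population replicates share a number in the labels and nothing says that it pairs them. With the replicate block, 2 of the 8 tested clock genes were called in limma. They were *Cry2* with a log2 ratio of -0.65 (limma adjusted p = 0.020) and *Nr1d1* with -0.42 (limma adjusted p = 0.047). In that fit 6 of the 18 tested genes of the wider list were called. Of all 11958 genes, 1580 were called lower and 1976 higher in Met-high cells, so that calls were frequent among all genes too. Over 11958 genes, the deviations of the replicates numbered 1 correlated between the populations at 0.539.

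Of all genes, 457 were called lower and 233 higher in Met-high cells. These counts were 7 and 0 without a filter on dim probes (1463 and 1197 at an unadjusted p under 0.05). The count higher was 147 with the percentile of detected probes, 392 with a variance trend and 110 for every probe by itself. With 1 array left out it ran from 155 to 264, the lowest without Met-low replicate 1. Past 2-fold were 633 lower and 291 higher, against 313 and 124 with normexp, 1398 and 658 without a filter, 1153 lower for every probe, and 172 higher over genes detected on all arrays. The wider list's 1 call, *Wee1*, became 0 calls in limma with the percentile of detected probes, without a filter, for every probe by itself and with a 2-fold threshold added. It became 0 to 1 with 1 array left out, the 1 being *Rora* without Met-high replicate 1. With the percentile of detected probes, 6 of that list had an unadjusted p under 0.05 in limma, against 1965 lower and 939 higher of all 11958 genes. Without a filter there were 2, against 1463 lower and 1197 higher of 20832 genes. With 2 arrays in each population, the intervals are wide relative to differences as small as those of the clock genes. For *Per2*, *Per3* and *Cry1* the signal over background was the limit.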
